A study of Mus musculus with 30 samples.

Results

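Transcript levels of 9 mouse enzymes that turn quinones, carbonyls, aldehydes, alkenals and epoxides into less reactive products were followed in tail fibroblasts exposed to 8 small molecules. The enzymes were Nqo1, Cbr1, Cbr3, Akr1b3, Akr1b8, Aldh3a1, Ephx1, Ugdh and Ptgr1. They were found by matching the Ensembl gene identifiers of the deposited table to GENCODE M21 symbols, and all 9 were among its 29861 genes. All 9 also passed the filter for testing, at least 1 TPM in at least 3 libraries, which 13644 genes passed. TPM, the transcript abundance unit of the deposited table, is a length-corrected share of the RNA of a library, so levels of different genes can be set side by side.

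These enzymes belong to the cell's defence against reactive carbon compounds, which arise from oxidised lipids, sugars, drugs and plant chemicals. Reductases use NADPH or NADH to turn quinones, ketones and aldehydes into hydroquinones and alcohols, aldehyde dehydrogenases oxidise aldehydes to acids, and epoxide hydrolase adds water to strained epoxide rings. Several of the genes, Nqo1 foremost, are textbook targets of the transcription factor NRF2, which binds antioxidant response elements, and Nqo1 and Aldh3a1 are also known targets of the aryl hydrocarbon receptor, which binds xenobiotic response elements.

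The cells were a primary fibroblast line, CCG-HTA-1, from tails of UMHet3 mice, a genetically mixed stock, used at passage 4. All groups, DMSO included, were grown in high-glucose DMEM with 10% serum and no pyruvate, at ambient oxygen and 10% CO2, received compound or solvent 24 hours after plating, and gave RNA 48 hours later. The donors were 5 to 8 weeks old, except that the label of Dihydrorotenone replicate 1 gives 8 to 11 weeks, and leaving that library out changed no call of the 9 genes. The groups were the solvent DMSO (6 libraries) and, with 3 libraries each, Antimycin A and Dihydrorotenone (inhibitors of the respiratory chain), Diphenyleneiodonium Cl (an inhibitor of flavoenzymes), Cardamonin (a chalcone made by plants), Podofilox (which stops tubulin from polymerising), BerberineA, AEG 3482 and Clofilium tosylate, which blocks potassium channels. The series text speaks of 5 DMSO replicates, but 6 libraries are labelled DMSO, and all 6 were used. Doses are not given in the labels. Every library came from the same cell line, so p-values measure the spread between these samples, which may be technical. Library numbers ran consecutively within the groups, so library batch and compound cannot be told apart. All comparisons with DMSO share the same 6 control libraries.

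Listed fibroblast markers were found in every group: all 9, Col1a1, Col1a2, Col3a1, Dcn, Lum, Pdgfra, Pdgfrb, Thy1 and Vim, averaged at least 1 TPM. Their summed level was lower in Cardamonin, at 3803 to 4815 TPM, than in DMSO, at 9750.1 to 11270.3 TPM, and AEG 3482 stood at 10768 to 12147 TPM. Listed keratinocyte markers summed to less than 1 TPM in every library, with Krt5 at 0 in all 30, and Myod1 of muscle and Plin1 and Lep of adipocytes were also at 0 in all 30. Summed melanocyte markers, from 4.54 to 6.93 TPM in DMSO, were 1.27 to 1.83 TPM in Cardamonin, 1.55 to 2.22 TPM in AEG 3482 and 16.1 to 18.6 TPM in Antimycin A. Endothelial markers, of which only Tek averaged 1 TPM or more in DMSO, summed to 5.42 to 8.71 TPM in DMSO, 1.09 to 1.18 TPM in Cardamonin and 1.63 to 1.77 TPM in AEG 3482. Macrophage and leukocyte markers summed to 28.6 to 44.9 TPM in Cardamonin, 18.8 to 20.5 TPM in AEG 3482 and 24.4 to 29.5 TPM in DMSO. Among them Adgre1 and Cd68 averaged at least 1 TPM in every group, and Csf1r in every group but Cardamonin. The part of these marker levels in the results below was not tested. In bulk RNA, fewer cells of a type and less RNA per cell cannot be told apart. Across the tested genes, libraries of the same group correlated with r between 0.986 and 0.993 (Pearson, 39 pairs).

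Cardamonin and AEG 3482 raised most of the 9 transcripts, and in the other 6 compounds the 9 genes moved in mixed directions, with the largest change there 2.64-fold for Aldh3a1 in Diphenyleneiodonium Cl. In Cardamonin 8 of the 9 rose, against 37.3% of all tested genes called higher and 33.0% called lower by limma at an adjusted p under 0.05. The ninth, Ugdh, did not pass (unadjusted p = 0.689). In AEG 3482, 7 rose and Akr1b3 fell, against 41.3% and 26.8% of all genes, and Ugdh again did not pass. The median log2 fold change of the 9 genes was 1.73 in Cardamonin and 1.5 in AEG 3482, beside 0.03 and 0.10 over all tested genes. All 3 libraries lay above the whole DMSO range for 8 of the 9 genes in Cardamonin, which 32.9% of all genes did, and for 7 in AEG 3482, which 36.1% did.

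Set directly against each other, Cardamonin was higher than AEG 3482 for 7 of the 9 genes and lower for Ephx1, against 22.6% and 32.7% of all tested genes. Without AEG 3482 replicate 1 the count of higher genes was 5, since Cbr1 and Cbr3 no longer passed.

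Diphenyleneiodonium Cl came next, with 5 of the 9 higher and 2 lower against 14.0% and 11.7% of all genes, and a median log2 fold change of 0.25. BerberineA had 4 higher and 2 lower (12.6% and 9.16% of all genes), with a median of 0.07. Antimycin A had 3 higher and 3 lower (21.8% and 15.5%), with a median of 0.13. Clofilium tosylate had 2 higher and 2 lower (10.9% and 12.5%), with a median of -0.01. Dihydrorotenone had 1 higher and 3 lower (4.95% and 9.43%), with a median of -0.02, and Podofilox 3 higher and 3 lower (26.2% and 20%), with a median of 0.04. The downward counts rest on single libraries in some compounds: they were 1 without Dihydrorotenone replicate 2, 1 without Diphenyleneiodonium Cl replicate 2, 1 without BerberineA replicate 1, and 0 without AEG 3482 replicate 1 or 3 or DMSO replicate 2 or 6. With median-ratio scaling of the libraries, the share of called genes that were higher went from 34.4% to 50.7% in Dihydrorotenone, from 57.9% to 47.7% in BerberineA and from 60.7% to 49.4% in AEG 3482, where the median over all genes went from 0.10 to -0.01.

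**Figure D1:**
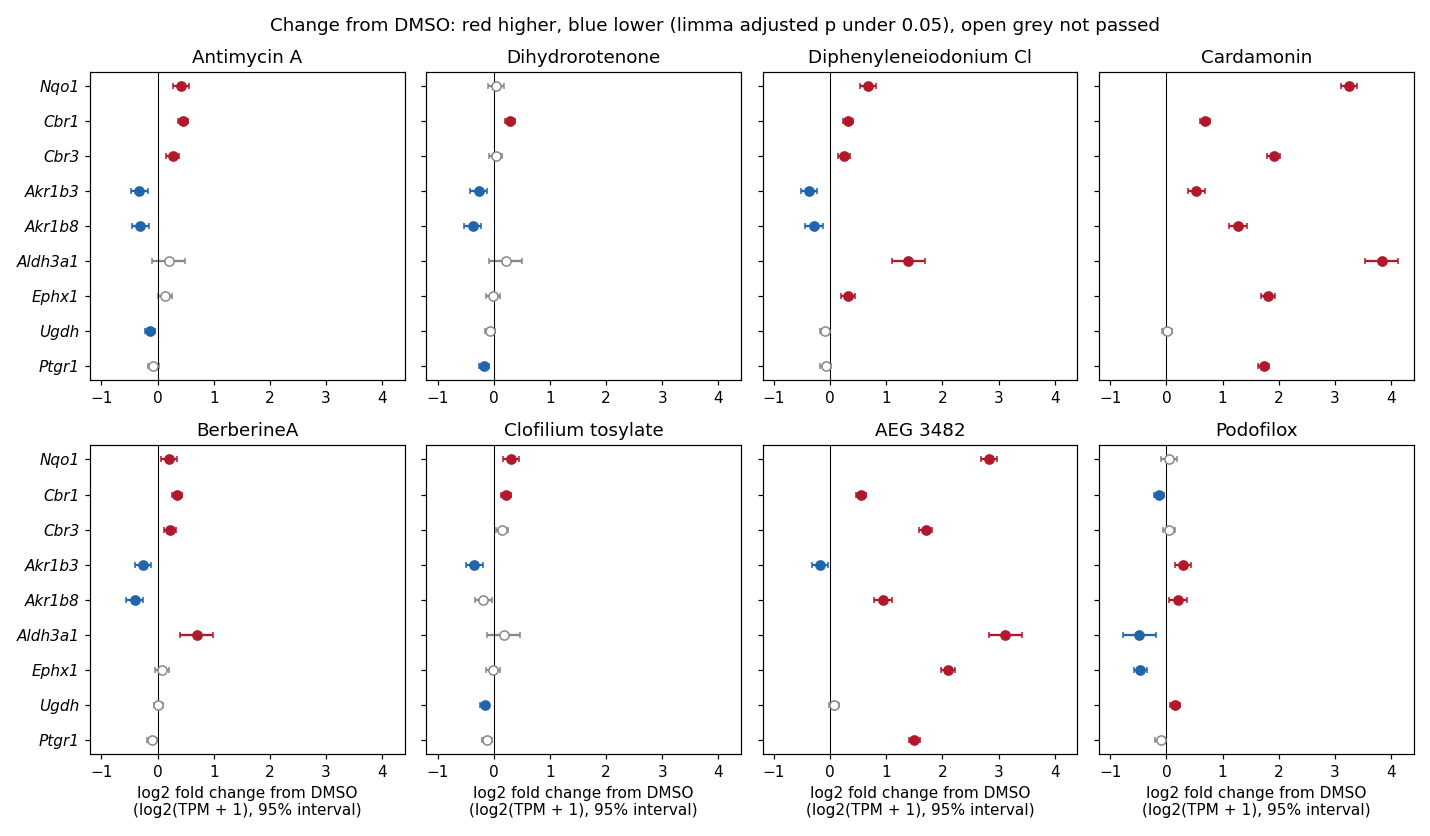
Log2 fold change from DMSO of the 9 transcripts (x axis, log2(TPM + 1) scale) in 8 panels, 1 per compound, with bars for the 95% interval from limma. Red points passed as higher and blue points as lower at an adjusted p under 0.05, open grey points did not pass. In Cardamonin 8 points and in AEG 3482 7 points are red, reaching 3.83 and 3.12 at Aldh3a1, while no other compound goes above 1.39.

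Nqo1 (ENSMUSG00000003849, GRCm38 chr8:107388225-107403206, minus strand) encodes the quinone reductase that takes quinones straight to hydroquinones. It had the second largest change of the 9 and the clearest record as an NRF2 target. The 249 bases before its GENCODE start are therefore shown (GRCm38.p6, chr8:107403207-107403455, minus strand, 5′ to 3′, from RefSeq).
Nqo1: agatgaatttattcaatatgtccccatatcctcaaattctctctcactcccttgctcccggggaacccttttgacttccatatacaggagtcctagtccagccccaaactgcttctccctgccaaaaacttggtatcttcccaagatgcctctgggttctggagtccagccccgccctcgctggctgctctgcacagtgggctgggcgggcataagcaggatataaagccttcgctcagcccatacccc
The motifs sought were TGACNNNGC (the core of the antioxidant response element), GCGTG (the core of the xenobiotic response element) and TGANTCA (an AP-1 site). None was found on either strand of the window from 250 bases before to 50 after the RefSeq start. This says only that these letters are not in this window.

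The DMSO libraries ran from 79.4 to 108 TPM around a median of 88.9 TPM. Cardamonin gave 848, 815 and 959 TPM, a log2 fold change of 3.25 ± 0.07 (SE) and 9.61 times the DMSO mean (limma adjusted p = 1.16e-22). AEG 3482 gave 603, 635 and 708 TPM, a log2 fold change of 2.83 ± 0.07 and 7.14 times the DMSO mean (limma adjusted p = 3.36e-21). The 6 libraries of these compounds were all far above every other library, and the Cardamonin libraries were all above those of AEG 3482, by 0.43 ± 0.08 on the log2 scale (limma adjusted p = 6.27e-05). Smaller rises followed in Diphenyleneiodonium Cl, with 149.6, 142 and 145 TPM (log2 fold change 0.68, limma adjusted p = 5.30e-08), and in Antimycin A, with 120.1, 129 and 114 TPM (log2 fold change 0.41, limma adjusted p = 3.35e-05). Both groups also lay wholly above DMSO. Clofilium tosylate, at 112, 107 and 117 TPM, overlapped the highest DMSO library and passed at 0.30 (limma adjusted p = 0.00209). BerberineA passed at 0.21 (limma adjusted p = 0.034), a call that was lost without any 1 of its own libraries or of DMSO replicates 1, 2, 3 and 6 and under 5 other settings, with adjusted p between 0.0531 and 0.121. Podofilox (87.4 to 99.2 TPM) and Dihydrorotenone (89.6 to 97.2 TPM) did not pass, with 95% intervals of -0.10 to 0.19 and -0.11 to 0.17. In the order of the levels, Cardamonin, AEG 3482, Diphenyleneiodonium Cl and Antimycin A each differed from the one before (limma adjusted p = 0.048 for the last step), and no neighbours below Antimycin A did.

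**Figure D2:**
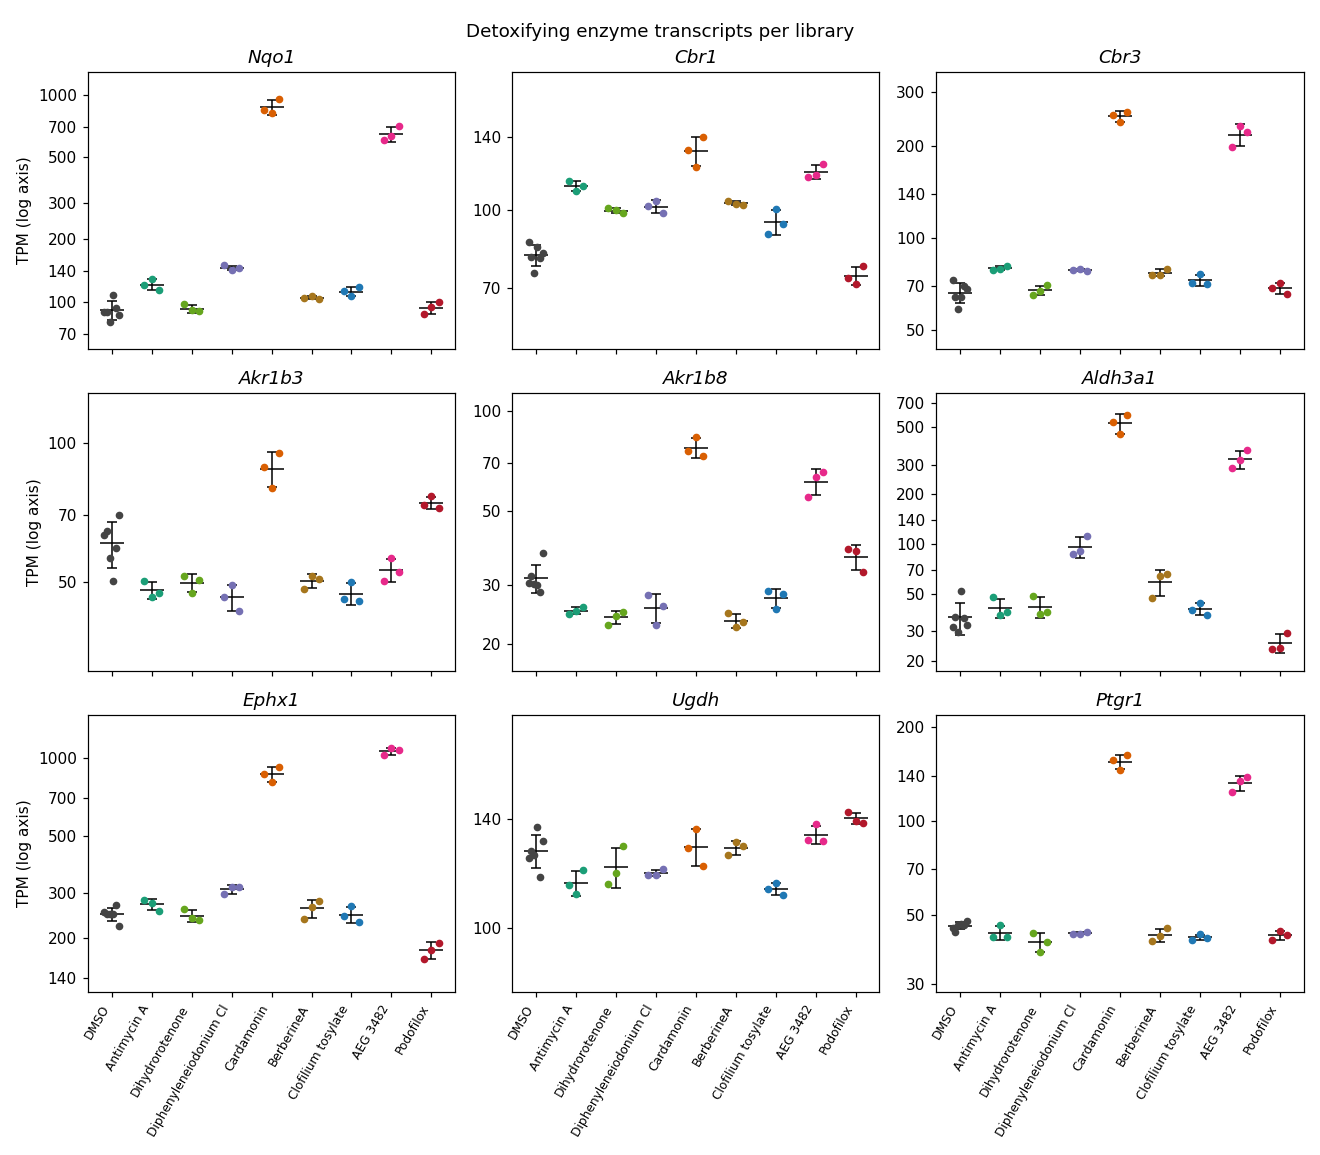
TPM of each of the 9 transcripts in every library (log axis, scales differ between panels), by group, with the mean and SD as bars. DMSO has 6 points and each compound 3. Nqo1, Cbr3, Aldh3a1, Ephx1 and Ptgr1 show 2 groups, Cardamonin and AEG 3482, that stand far above all others, while Ugdh stays between 111 and 143 TPM in all 30 libraries.

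Cbr1 and Cbr3 are carbonyl reductases of the short-chain dehydrogenase family that lie on the same chromosome in the same orientation (Cbr1 ENSMUSG00000051483, chr16:93605853-93610505; Cbr3 ENSMUSG00000022947, chr16:93683215-93690990; GRCm38, plus strand). They started at like levels, 81.4 ± 3.92 TPM (SD, n = 6) for Cbr1 and 66.3 ± 5.04 TPM (SD, n = 6) for Cbr3 in DMSO. Cbr3 rose much more than Cbr1 in Cardamonin and AEG 3482. Cbr3 followed Nqo1 more closely than any other of the 9 did. The 246 bases before the GENCODE start of Cbr3 are therefore shown (GRCm38.p6, chr16:93682969-93683214, plus strand, 5′ to 3′, from RefSeq).
Cbr3: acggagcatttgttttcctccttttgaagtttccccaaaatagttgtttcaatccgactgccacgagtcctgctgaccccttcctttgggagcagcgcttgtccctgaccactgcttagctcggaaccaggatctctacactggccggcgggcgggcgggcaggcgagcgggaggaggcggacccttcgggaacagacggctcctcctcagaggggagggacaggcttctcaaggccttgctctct
None of the 3 motifs was found in the window around the RefSeq start of Cbr3.

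The DMSO libraries ran from 58.5 to 72.8 TPM around a median of 66.2 TPM. Cardamonin libraries held 254, 239 and 259 TPM (log2 fold change 1.91 ± 0.05, 3.78-fold, limma adjusted p = 1.66e-20). AEG 3482 libraries held 198, 233 and 222 TPM (log2 fold change 1.70 ± 0.05, 3.28-fold, limma adjusted p = 3.00e-19). All 6 lay above every library of the other groups. Cbr3 was higher in Cardamonin than in AEG 3482 by 0.21 ± 0.06 (limma adjusted p = 0.00598), a call lost without AEG 3482 replicate 1 (adjusted p = 0.0678). Antimycin A (78.6, 79.5 and 81.2 TPM), Diphenyleneiodonium Cl (78.5, 79.1 and 78.2 TPM) and BerberineA (76.0, 75.8 and 79.6 TPM) each lay just above the DMSO range and passed, with log2 fold changes of 0.27, 0.25 and 0.22. Clofilium tosylate, at 0.14, did not pass (limma adjusted p = 0.059), but did without DMSO replicate 1 (0.0207) or 5 (0.0455), or with quantile normalization (0.0439). Podofilox and Dihydrorotenone did not pass, with log2 fold changes of 0.05 and 0.03. Below AEG 3482, no neighbours in the order of the levels differed.

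Cbr1 moved in every comparison, and mostly by little. In DMSO it ran from 75.0 to 86.4 TPM, with a median of 81.3 TPM. Cardamonin held 132, 122 and 139.5 TPM (log2 fold change 0.68 ± 0.04, limma adjusted p = 3.45e-13), and AEG 3482 116, 117 and 123 TPM (log2 fold change 0.54 ± 0.04, limma adjusted p = 4.64e-11). Antimycin A, with 114, 109 and 112 TPM, came close behind at 0.45 ± 0.04 and did not pass as different from AEG 3482. BerberineA, Diphenyleneiodonium Cl, Dihydrorotenone and Clofilium tosylate rose by 0.34, 0.32, 0.29 and 0.21, and every library of these 4 groups lay above the DMSO range. Podofilox alone was lower, with 73.4, 71.3 and 77.3 TPM, overlapping DMSO, and fell by 0.14 on the log2 scale (limma adjusted p = 0.0128). That call was lost without Podofilox replicate 2 (adjusted p = 0.0835) and in a fit of Podofilox and DMSO alone (0.0509). The Cardamonin level exceeded that of AEG 3482 by 0.14 ± 0.05 (limma adjusted p = 0.0233), which was lost without Cardamonin replicate 1 or 3 or AEG 3482 replicate 1 or 2 (adjusted p between 0.0581 and 0.16). That difference was 0.22 with median-ratio scaling and 0.09 without Cardamonin replicate 3. Some 7.83% of the 31-base words of Cbr1 transcripts occur in transcripts of other genes, among them the predicted gene Gm5678 and Cbr3, and 2.31% of those of Cbr3, so a small part of the reads could be split between them.

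The ratio of Cbr3 to Cbr1 TPM within a library, which does not depend on how libraries are scaled, was 0.761 to 0.868 in DMSO. It was 1.93, 1.96 and 1.86 in Cardamonin and 1.70, 1.99 and 1.80 in AEG 3482, so the order of the pair turned over in both. Antimycin A libraries held ratios of 0.688 to 0.727 and Dihydrorotenone 0.646 to 0.711, wholly below DMSO. In an exact two-sided permutation test of log2((TPM + 1)/(TPM + 1)), 3 libraries against 6, these 4 compounds reached p = 0.0238, the smallest that 84 arrangements allow. Adjusted over the 16 ratio tests it was 0.0635, so none passed. A limma fit with the ratios added as rows, chosen after these tests were seen, gave log2 differences of 1.23 ± 0.05 in Cardamonin (adjusted p = 3.95e-16), 1.16 ± 0.05 in AEG 3482 (2.35e-15), -0.26 ± 0.05 in Dihydrorotenone (0.00174) and -0.19 ± 0.05 in Antimycin A (0.00758). Podofilox also passed there, at 0.19 (adjusted p = 0.00552), with 1 of its libraries (0.848) inside the DMSO range. Between Cardamonin and AEG 3482 the ratio did not pass (difference 0.07, 95% interval -0.06 to 0.20).

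**Figure D3:**
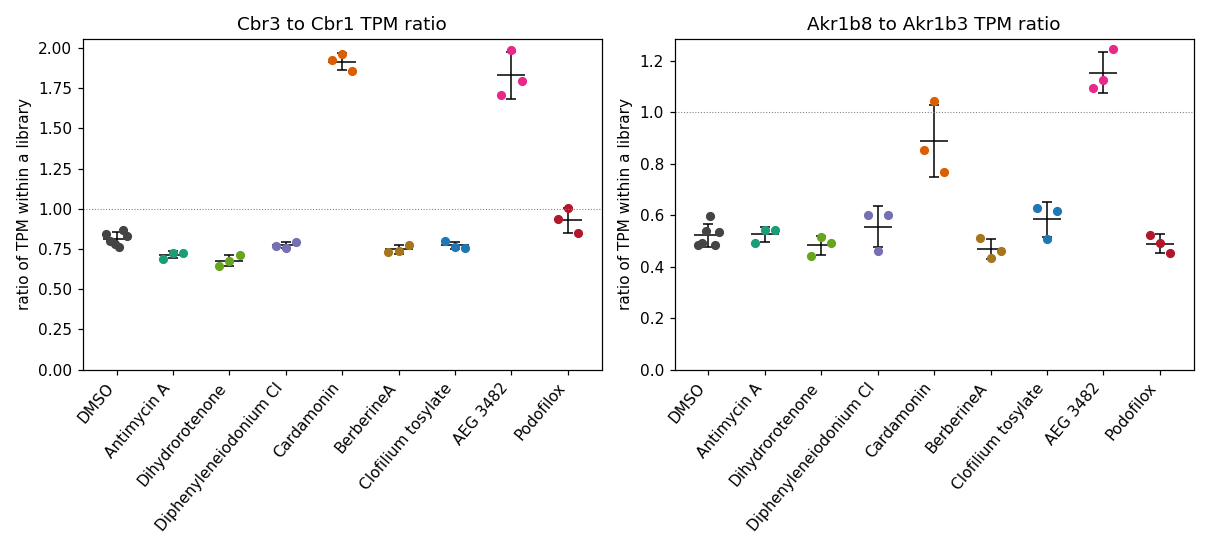
Ratio of TPM within each library, Cbr3 to Cbr1 on the left and Akr1b8 to Akr1b3 on the right (linear axes from 0, dotted line at 1), by group, with the mean and SD. Cbr3 to Cbr1 lies between 0.646 and 1.0 in all groups other than Cardamonin (1.86 to 1.96) and AEG 3482 (1.70 to 1.99). Akr1b8 to Akr1b3 exceeds 1 in all 3 libraries of AEG 3482 and in 1 of Cardamonin.

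Akr1b3, the mouse aldose reductase, and Akr1b8, an aldose reductase-like enzyme that reduces aldehydes, are neighbours on chromosome 6 (Akr1b3 ENSMUSG00000001642, chr6:34302434-34317478, minus strand; Akr1b8 ENSMUSG00000029762, chr6:34354119-34368463, plus strand; GRCm38). Unlike the reductases above, both fell in several compounds. They parted in AEG 3482, where Akr1b8 rose and Akr1b3 fell.

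Akr1b8 had 1 DMSO library apart from the rest. The DMSO libraries ran from 28.6 to 37.4 TPM around a median of 30.4 TPM, and the next highest library held 31.9 TPM. Cardamonin held 75.9, 83.6 and 73.1 TPM (log2 fold change 1.28 ± 0.07, 2.46-fold, limma adjusted p = 4.67e-14) and AEG 3482 55.1, 63.3 and 65.5 TPM (log2 fold change 0.94 ± 0.07, 1.95-fold, limma adjusted p = 3.18e-11). Both stood clear of all other groups, and Cardamonin was the higher by 0.34 ± 0.09 (limma adjusted p = 0.00176). Falls came in BerberineA, with 24.7, 22.4 and 23.3 TPM (-0.41, limma adjusted p = 0.000233), and in Dihydrorotenone, with 22.8, 24.3 and 24.9 TPM (-0.37, limma adjusted p = 0.00126). Antimycin A, with 24.6, 25.1 and 25.7 TPM (-0.31, limma adjusted p = 0.00185), and Diphenyleneiodonium Cl, with 27.9, 22.8 and 26.1 TPM (-0.29, limma adjusted p = 0.00511), fell too, and all 4 groups lay wholly below DMSO. The call in Diphenyleneiodonium Cl was lost without its replicate 2 (adjusted p = 0.0758). Podofilox, at 38.5, 37.9 and 32.8 TPM, passed as higher by 0.20 (limma adjusted p = 0.0264), which was lost without Podofilox replicate 1 (0.139) or 2 (0.11) or DMSO replicate 5 (0.0571) and under 4 other settings. Clofilium tosylate did not pass at -0.19 (limma adjusted p = 0.0704), but did without DMSO replicate 5 (0.0463). From DMSO down to BerberineA, no neighbours in the order differed.

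Akr1b3 rose in Cardamonin and Podofilox and fell in the other 6 compounds. Its DMSO range was 50.3 to 70.1 TPM (median 61.3 TPM). Cardamonin held 89.0, 80.2 and 95.1 TPM (log2 fold change 0.53 ± 0.07, limma adjusted p = 2.90e-07), and Podofilox 73.3, 77.0 and 72.5 TPM (log2 fold change 0.29 ± 0.07, limma adjusted p = 0.00141). Both groups were wholly above DMSO, and Cardamonin was above Podofilox (limma adjusted p = 0.0153). The falls were -0.37 in Diphenyleneiodonium Cl (46.4, 49.4 and 43.4 TPM), -0.35 in Clofilium tosylate (46.0, 50.1 and 45.5 TPM) and -0.33 in Antimycin A (50.2, 46.4 and 47.4 TPM), all wholly below DMSO. Dihydrorotenone (-0.27) and BerberineA (-0.26) overlapped the lowest DMSO library, and their calls were lost without Dihydrorotenone replicate 2 (adjusted p = 0.077) and BerberineA replicate 1 (0.0518). AEG 3482, with 50.4, 56.3 and 52.7 TPM, fell by 0.18 on the log2 scale (limma adjusted p = 0.0269), a call lost without AEG 3482 replicate 1 (0.129) or 3 (0.0706) or DMSO replicate 2 (0.0545) or 6 (0.0666). From AEG 3482 down, no neighbours in the order differed. Cardamonin and AEG 3482 themselves differed by 0.72 ± 0.08 (limma adjusted p = 5.44e-08), beside 0.71 ± 0.16 for Aldh3a1.

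The ratio of Akr1b8 to Akr1b3 TPM was 0.482 to 0.598 in DMSO, 0.853, 1.04 and 0.769 in Cardamonin and 1.09, 1.12 and 1.24 in AEG 3482. Both compounds lay wholly above DMSO and reached the smallest exact permutation p of 0.0238 (adjusted 0.0635 over 16 tests). The 6 other compounds had exact permutation p from 0.119 to 0.667. In the added limma fit the log2 differences from DMSO were 0.74 ± 0.10 in Cardamonin (adjusted p = 2.79e-07) and 1.12 ± 0.10 in AEG 3482 (3.18e-10). There the ratio was lower in Cardamonin than in AEG 3482, with a difference of -0.38 (adjusted p = 0.00555). Shared sequence is larger in this pair: 15.2% of the 31-base words of Akr1b3 occur in other genes, chiefly the pseudogenes Gm38056 and Gm6644, and 9.48% of those of Akr1b8, chiefly in Akr1b10 and Akr1b7, so their levels are less certain. An antisense gene, Gm14546, overlaps Akr1b3 and is not listed at 1 TPM in any library. Whether the counting used strand is not stated, so reads of Akr1b3 and Gm14546 cannot be told apart where these genes overlap.

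Aldh3a1 (ENSMUSG00000019102, GRCm38 chr11:61207537-61218421, plus strand) encodes a cytosolic aldehyde dehydrogenase, abundant in cornea, that oxidises aldehydes from lipid peroxidation. It changed more than any other of the 9, and it shares no 31-base word with another gene. The DMSO libraries ran from 29.8 to 52.2 TPM around a median of 34.4 TPM, with replicate 4 apart from the others. Cardamonin held 539.6, 455 and 593 TPM, a log2 fold change of 3.83 ± 0.14 and 14.5 times the DMSO mean (limma adjusted p = 4.76e-18). AEG 3482 held 284, 317 and 364 TPM, a log2 fold change of 3.12 ± 0.14 and 8.80 times the DMSO mean (limma adjusted p = 5.81e-16). Only 15 of the 13644 tested genes rose more in Cardamonin and 9 in AEG 3482. Diphenyleneiodonium Cl followed with 86.8, 90.9 and 112 TPM, 2.64 times DMSO and wholly above it (log2 fold change 1.39 ± 0.14, limma adjusted p = 5.30e-08). BerberineA held 47.5, 64.6 and 66.2 TPM, with 1 library inside the DMSO range, and passed at 0.70 ± 0.14 (limma adjusted p = 0.000746). Podofilox was the lowest group, with 23.5, 23.8 and 29.5 TPM, wholly below DMSO, and fell by 0.48 on the log2 scale (limma adjusted p = 0.00723). Dihydrorotenone (38.3 to 49.0 TPM), Antimycin A (37.6 to 48.0 TPM) and Clofilium tosylate (37.8 to 44.6 TPM) did not pass, with upper 95% limits of 0.51, 0.49 and 0.47. The first 4 groups in the order, Cardamonin, AEG 3482, Diphenyleneiodonium Cl and BerberineA, each differed from the one before (limma adjusted p = 0.0446 for the last step), and so did DMSO from Podofilox at the other end. Every call of Aldh3a1 stood when any 1 library was left out. The call in Podofilox was lost in a fit with the replicate number as a block (-0.35, limma adjusted p = 0.0562).

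Ephx1 (ENSMUSG00000038776, GRCm38 chr1:180976210-181020904, minus strand) encodes microsomal epoxide hydrolase, which opens epoxides to diols. It was the most abundant of the 9 in DMSO and the only 1 of them called higher in AEG 3482 than in Cardamonin. Solvent libraries held 224 to 269 TPM, with the median at 248 TPM. AEG 3482 held 1031, 1093 and 1078 TPM (log2 fold change 2.10 ± 0.06, 4.30-fold, limma adjusted p = 4.36e-20), and Cardamonin 872, 809 and 928 TPM (log2 fold change 1.80 ± 0.06, 3.50-fold, limma adjusted p = 5.28e-19). The 2 groups did not overlap, and the difference of Cardamonin minus AEG 3482 was -0.30 ± 0.07 (limma adjusted p = 0.000706). It kept its direction and its call, between -0.34 and -0.22, under every alternative tried. Diphenyleneiodonium Cl rose to 297, 317 and 315 TPM, above all DMSO libraries (log2 fold change 0.32 ± 0.06, limma adjusted p = 0.00023). Podofilox fell to 167, 181 and 193 TPM, below all of them (log2 fold change -0.46 ± 0.06, limma adjusted p = 5.55e-07). Antimycin A, BerberineA, Clofilium tosylate and Dihydrorotenone did not pass, with log2 fold changes of 0.13, 0.07, -0.01 and -0.02. A pseudogene, Gm36961, overlaps Ephx1 on the same strand and is not listed at 1 TPM in any library, and 3.25% of the 31-base words of Ephx1 are shared.

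Ptgr1 (ENSMUSG00000028378, GRCm38 chr4:58965439-58987119, minus strand) encodes prostaglandin reductase, which reduces the double bond of alkenals such as 4-hydroxynonenal and of prostaglandin metabolites. It rose in Cardamonin and AEG 3482 and in no other compound. The DMSO libraries were the most alike of the 9 genes, with a coefficient of variation of 2.82% against 22.2% for Aldh3a1, and ran from 44.0 to 47.9 TPM (median 46.3 TPM). Cardamonin held 157, 146 and 163 TPM (log2 fold change 1.73 ± 0.05, 3.37-fold, limma adjusted p = 5.44e-21). AEG 3482 held 124, 135 and 139 TPM (log2 fold change 1.5 ± 0.05, 2.87-fold, limma adjusted p = 1.72e-19). Cardamonin exceeded AEG 3482 by 0.23 ± 0.05 (limma adjusted p = 0.00059). All 6 other compounds had means below DMSO, between 40.8 and 43.8 TPM, and of these Dihydrorotenone passed, at 43.5, 38.0 and 40.9 TPM (-0.17, limma adjusted p = 0.0112). That call was lost without Dihydrorotenone replicate 2 (adjusted p = 0.123), while Clofilium tosylate (-0.12, 0.0511) and Podofilox (-0.10, 0.0708) passed without DMSO replicate 2 (0.0375 and 0.0495). The call in Dihydrorotenone was also lost with median-ratio scaling (0.0989), quantile normalization (0.0504) and a fit with DMSO only (0.0692). Podofilox also passed with those 2 scalings (0.0459 and 0.0257). Clofilium tosylate also passed without the 20 most abundant genes (0.0371) and with the filter at a mean of 5 TPM (0.0476). From DMSO down, no neighbours in the order differed.

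Ugdh (ENSMUSG00000029201, GRCm38 chr5:65413221-65435949, minus strand) encodes UDP-glucose dehydrogenase, which makes UDP-glucuronate for glucuronidation and for matrix polymers such as hyaluronan. It was the flattest of the 9 transcripts. The DMSO libraries ran from 117 to 137 TPM around a median of 126 TPM. Cardamonin held 128, 136 and 121 TPM and AEG 3482 131, 138 and 131 TPM, both overlapping DMSO, and the 95% intervals of their log2 fold changes were -0.07 to 0.11 and -0.01 to 0.16. Ugdh was also the only 1 of the 9 with no called difference between Cardamonin and AEG 3482 (interval -0.16 to 0.04). Podofilox was wholly above DMSO, with 143, 139 and 139 TPM (log2 fold change 0.15 ± 0.04, limma adjusted p = 0.00636). Clofilium tosylate was wholly below it, with 113, 115 and 111 TPM (-0.17, limma adjusted p = 0.00559), and Antimycin A overlapped it, with 114, 111 and 119.7 TPM (-0.14, limma adjusted p = 0.0117). The call in Antimycin A was lost without its replicate 2 (0.0781) and in a fit with DMSO only (0.0591). Diphenyleneiodonium Cl (-0.09) passed without DMSO replicate 5 (0.0417) and AEG 3482 without DMSO replicate 4 (0.0427). Scaling mattered too: Diphenyleneiodonium Cl passed as lower with median-ratio scaling (0.0384), quantile normalization (0.0364) and without the 20 most abundant genes (0.041). No neighbours in the order of the levels differed. The genes Gm43552 and Gm43289 overlap Ugdh and are not listed at 1 TPM in any library. Both lie on the same strand as Ugdh, so reads from shared exons cannot be told apart by strand.

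Ugdh was the only member of the group whose RefSeq promoter window held the antioxidant response element core. Windows of 300 bases (250 before the start, 50 after) were found for 7 of the 9 genes, all but Akr1b3 and Aldh3a1. The Ugdh window held 2 matches to TGACNNNGC, shown with 10 bases on each side and the match in capitals (GRCm38.p6, 5′ to 3′ on the minus strand of the chromosome), the first at chr5:65435956-65435984 and the second, which matches on the opposite strand, at chr5:65435918-65435946.
Ugdh first site: gcggagcccgTGACTTAGCtggagctgat
Ugdh second site: tcctcaagggGCGTGGTCAtacagttcgg
Over 32851 windows of all genes, 12.4% held this motif. GCGTG was found in 3 of the 7 (Ugdh, Akr1b8 and Cbr1) against 32.4% of all windows, and 1 of the 3 matches in Ugdh overlaps the second site above. TGANTCA was in none of the 7 and in 7.81% of all windows. A match is a run of letters and not evidence of binding, and sites outside the windows were not searched.

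Added together, the 9 transcripts came to 788.5 ± 23.6 TPM in the DMSO libraries (SD, n = 6). The sum was 3104 ± 222 TPM with Cardamonin and 2755 ± 148 TPM with AEG 3482 (SD, n = 3 each). The 6 other compounds ran from 735.5 TPM in Podofilox to 966 TPM in Diphenyleneiodonium Cl. Ephx1 made up 31.5% of the sum in DMSO and Ugdh 16.1%. In Cardamonin the largest shares were Nqo1 at 28.1% and Ephx1 at 28%, with Aldh3a1 going from 4.62% in DMSO to 17.0%. In AEG 3482 Ephx1 was the largest at 38.8%, then Nqo1 at 23.5%. Ugdh made up 4.16% and 4.85% of the sum in these groups, at a nearly level TPM.

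**Figure D4:**
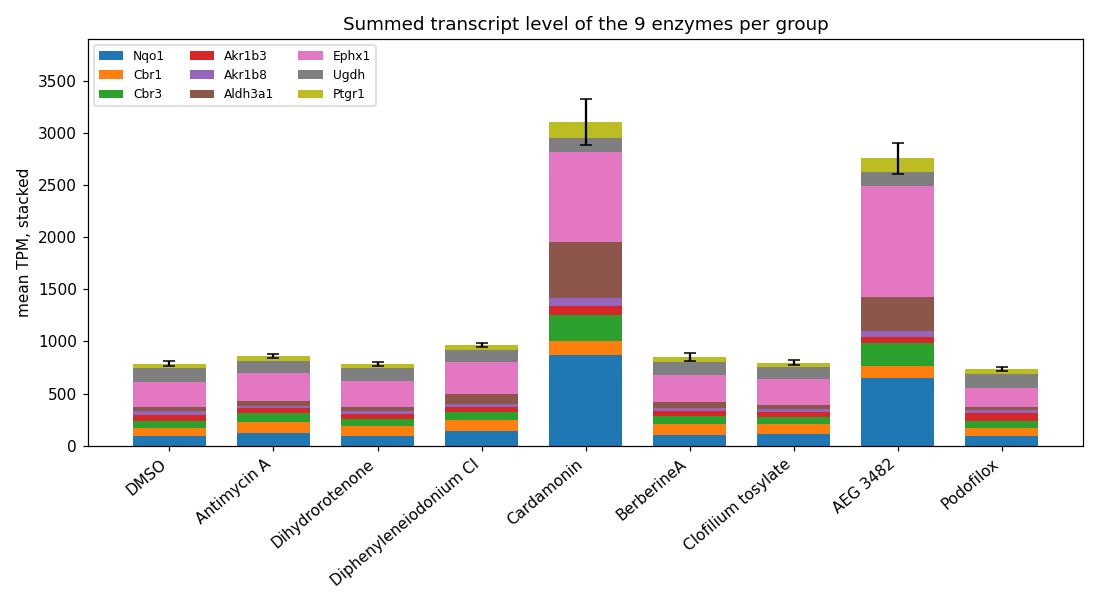
Stacked bars of the mean TPM of the 9 transcripts per group (linear axis from 0), with the SD of the sum over libraries as the error bar (n = 6 for DMSO, 3 for each compound). Cardamonin (3104 TPM) and AEG 3482 (2755 TPM) rise above the other groups (735.5 to 966 TPM), mostly through Nqo1, Aldh3a1, Ephx1 and Cbr3.

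Across the 9 group means of log2(TPM + 1), Nqo1 and Cbr3 were the most alike of the 36 pairs of these genes (Pearson r = 0.996), and r was 0.85 over the 7 groups without Cardamonin and AEG 3482. Nqo1 and Ptgr1 had r = 0.98 over 9 groups and 0.06 over those 7. Akr1b3 and Cbr1 had r near 0 over 9 groups (-0.0048) and -0.91 over 7. These are descriptions of group means from the same libraries, with no test. By the same measure over 9 groups, 3497 other tested genes whose group means span at least 1 on the log2 scale were compared. The 2 most like each gene were listed, and r over the 7 groups is not given for them. Nqo1 was nearest to Gstm1, a glutathione transferase (r = 0.997), and Mdm2, the ubiquitin ligase of p53 (0.993), and Cbr3 to the adaptor Nck2 and Mdm2 (both 0.995). Ptgr1 was nearest to G6pdx, glucose-6-phosphate dehydrogenase (0.998), and Fetub (0.997), a low transcript with means of 0.85 TPM in DMSO and 4.94 TPM in Cardamonin. Ptgs2, the inducible prostaglandin synthase, was among the 2 most like Akr1b8 (0.995). Ephx1 was nearest to the amino acid transporter Slc43a2 (0.991) and the myosin chain Myh9 (0.989), Cbr1 to Rgs10 (0.979) and Ddias (0.948), and Aldh3a1 to Nptx1 (0.978) and the histone gene Hist1h4h (0.977). Akr1b3 was nearest to the chaperone Dnajb9 (0.963) and to Uchl1 (0.956). Ugdh had no close match, with Col12a1, a collagen, at 0.885 and Cd34 at 0.840.

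The other genes of aldehyde, carbonyl and epoxide metabolism did not rise as a body. Of 65 listed, 64 were in the table and 51 were tested. In Cardamonin 19 of the 51 rose and 21 fell, with a median log2 fold change of -0.10, and in AEG 3482 23 rose and 21 fell, with a median of -0.03. These shares, 37.3% and 41.2% in Cardamonin and 45.1% and 41.2% in AEG 3482, stand beside 37.3% and 33.0%, and 41.3% and 26.8%, of all tested genes. Podofilox had 10 higher and 27 lower, 19.6% and 52.9% beside 26.2% and 20% of all tested genes. Antimycin A had 15 and 9 (29.4% and 17.6%, beside 21.8% and 15.5%). Diphenyleneiodonium Cl had 13 and 8 (25.5% and 15.7%, beside 14.0% and 11.7%). BerberineA had 7 and 3 (13.7% and 5.88%, beside 12.6% and 9.16%). Clofilium tosylate had 6 and 6 (11.8% each, beside 10.9% and 12.5%), and Dihydrorotenone 4 and 4 (7.84% each, beside 4.95% and 9.43%). Without Dihydrorotenone replicate 1 or 2 its lower count was 2, and without Clofilium tosylate replicate 3 that of Clofilium tosylate was 3. Among the 15 tested aldehyde dehydrogenases, Cardamonin had 3 higher and 7 lower, AEG 3482 2 higher and 8 lower, and Podofilox 2 higher and 9 lower. Of the 7 tested genes of UDP-glucuronate supply and glucuronosyl transfer, 5 rose and 1 fell in Cardamonin, and 5 rose and 2 fell in AEG 3482. Ugt1a genes were among those listed there, and sequence shared between them was not examined. The 17 reductases of quinones and carbonyls had 6 higher and 8 lower in Cardamonin, and 9 and 6 in AEG 3482. The 6 alcohol dehydrogenases and glyoxalases had 3 and 1, and 5 and 1. The 5 alkenal and quinone oxidoreductases had 2 and 3 in both. All these counts stand beside the shares of all tested genes given above.

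In Cardamonin, Adh7 and Akr1c18 had larger log2 fold changes than any of the 9 genes, while in AEG 3482 none of the genes named here exceeded Aldh3a1 (3.12). Adh7, an alcohol dehydrogenase active on retinol, went from 18.8 ± 3.84 TPM in DMSO to 389 ± 49.1 TPM in Cardamonin (log2 fold change 4.31, limma adjusted p = 1.06e-21) and 124 ± 11.8 TPM in AEG 3482 (2.67). Akr1c18, which reduces progesterone, went from 2.97 ± 0.495 TPM to 67.0 ± 3.48 TPM in Cardamonin (4.11, limma adjusted p = 1.06e-21) and 18.5 ± 1.04 TPM in AEG 3482 (2.31). Akr1c14, a related steroid reductase, rose to 154 ± 20.8 TPM in Cardamonin from 32.6 ± 5.95 TPM (2.22, limma adjusted p = 3.46e-15). In all 3 genes every library of the compounds named lay above the DMSO range. Esd, which completes the removal of formaldehyde through glutathione, rose from 732 ± 71.7 TPM to 2972 ± 148 TPM in Cardamonin (2.02, limma adjusted p = 1.28e-19) and 2496 ± 93.6 TPM in AEG 3482 (1.77, limma adjusted p = 3.52e-18). Cbr2, another carbonyl reductase, fell where Cbr1 and Cbr3 rose, from 294 ± 25.8 TPM to 65.7 ± 15.5 TPM in Cardamonin (-2.17, limma adjusted p = 1.84e-16) and 51.4 ± 2.28 TPM in AEG 3482 (-2.49, limma adjusted p = 2.38e-17). Ephx2, the soluble epoxide hydrolase, fell where Ephx1 rose, from 3.58 ± 0.244 TPM to 0.519 ± 0.283 TPM in AEG 3482 (-1.61, limma adjusted p = 4.26e-13). Aldh1l1, a folate enzyme of the aldehyde dehydrogenase family, fell from 15.4 ± 0.684 TPM to 6.50 ± 0.774 TPM in Cardamonin (-1.13, limma adjusted p = 1.02e-09). No library of Cbr2, Ephx2 or Aldh1l1 in the compounds named reached the DMSO range. Genes were named here for the size of their change, so lying outside that range follows largely from the choice. Over all tested genes, 32.9% lay wholly above and 28.7% wholly below DMSO in Cardamonin, and 36.1% and 22.8% in AEG 3482.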

How the data were processed

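RNA sequencing of 30 libraries was analysed, 6 of DMSO and 3 of each of 8 compounds, grouped by the treatment in the labels. The deposited table holds TPM per gene, made by the authors with kallisto 0.43.1 per the submitters' processing notes (which also name FastQC and mm10) and summed with tximport per the series text. The transcript index and annotation are not given in the sources used here. The listed genes sum to between 927024 and 937134 TPM per library. TPM carries no sequencing depth, so depth is unknown and precision rests on the spread between replicates. Because TPM is a share of a library, a rise of abundant genes lowers the others.

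The 29861 identifiers were matched to GENCODE M21 (GRCm38), which held 29505 of them. All 30 libraries were fitted with limma 3.58.1 (R 4.3.3) on log2(TPM + 1), 1 mean per group, with an intensity trend, for the 13644 genes that reached 1 TPM in 3 or more libraries. This scale understates changes of low genes. Adjustment (Benjamini-Hochberg) was over all tested genes within each of 36 contrasts, threshold 0.05. Ratios were compared by exact permutation tests (scipy 1.17.1), and the limma procedure was tested on simulated data. The members, lists and motifs were chosen with earlier results of these data known. Named genes were the 9 members, the 2 genes most like each (1 of which is not reported here), the 3 largest rises and 2 largest falls of the other detoxification genes in Cardamonin and AEG 3482, and the nearest tested protein-coding genes. Alternatives varied the pseudocount (0.1 and 5 TPM), the filter, the scaling, the trend, the libraries fitted and a replicate block. The ratio rows in limma and the alternatives of the direct contrast of Cardamonin with AEG 3482 were chosen after seeing the data.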

Additional observations from a re-analysis of the deposited data

Results flagged for a closer look

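Among the 6 DMSO libraries, 2 values stood apart by Dixon's criterion, the gap to the nearest library divided by the range. Aldh3a1 was 52.2 TPM in DMSO replicate 4, with the other 5 between 29.8 and 36.8 TPM (0.689, critical value 0.625). Akr1b8 was 37.4 TPM in DMSO replicate 6, with the other 5 between 28.6 and 31.9 TPM (0.627). These were 2 of the 9 genes, each tested as 1 group of DMSO libraries, and chance flags about 1 in 20 groups. Without DMSO replicate 4 the log2 fold changes of Aldh3a1 were 3.94 in Cardamonin and -0.38 in Podofilox, and without DMSO replicate 6 those of Akr1b8 were 1.33 in Cardamonin and -0.36 in BerberineA, all on the same side of the threshold as with all libraries.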

How the results depend on the processing

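Under all the settings tried, no called log2 fold change of the 9 genes against DMSO changed direction, and the 8 rises in Cardamonin and 7 in AEG 3482 were called in all of them. In a fit of each compound with DMSO only, the number of the 9 genes called lower was 1 in Dihydrorotenone, 1 in BerberineA and 0 in AEG 3482 (3, 2 and 1 in the fit of all libraries), and other detoxification genes numbered 1 lower in Dihydrorotenone and 4 higher in BerberineA (4 and 7). Without a filter AEG 3482 had 0 lower. Other detoxification genes lower numbered 2 in Dihydrorotenone with median-ratio scaling, and 5 in BerberineA with quantile normalization and without the 20 most abundant genes. By construction, the fits with DMSO only have fewer residual degrees of freedom and the fit without a filter tests more genes. The cause of the changed counts was not tested under any setting. Leaving out 1 library, the members called lower ranged from 1 to 3 in Dihydrorotenone, 1 to 3 in Diphenyleneiodonium Cl, 1 to 2 in BerberineA and 0 to 1 in AEG 3482, and other genes lower from 2 to 4 in Dihydrorotenone and 3 to 8 in Clofilium tosylate. Between Cardamonin and AEG 3482 the members higher ranged from 5 to 7 and the member lower, Ephx1, was 1 throughout.

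Same-numbered libraries of different groups had residual correlations from -0.11 to 0.15 (median 0.01), and 4 of 108 were over 0.1. Libraries with different numbers ran from -0.16 to 0.13 (median 0.0008), with 5 of 216 over 0.1. Between a compound and DMSO, 2 of 24 same-numbered pairs were over 0.1. Correlations this weak show no clear pairing by number and cannot show that there was none. Numbers 4, 5 and 6 occur only in DMSO, so the fit with the replicate block compared each compound with DMSO replicates 1, 2 and 3 only. In that fit, members lower in Podofilox went from 3 to 1, since Aldh3a1 (-0.35, adjusted p = 0.0562) and Cbr1 (-0.12, 0.0794) no longer passed. Ptgr1 in Dihydrorotenone (-0.15, 0.083) did not pass either. Whether these calls were lost through the block or through the fewer controls was not tested. The other 69 calls of members kept their side of the threshold. Depth is unknown, and with 3 libraries a group several of the small changes passed or failed with a single library.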

Other observations

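The nearest tested protein-coding neighbours of the 9 genes were read from the same limma fit. Akr1b10, which lies 15755 bases beyond Akr1b8 and encodes another aldo-keto reductase, fell where Akr1b8 rose. On the log2 scale it changed by -0.58 (limma adjusted p = 1.31e-10) in Cardamonin and -0.74 (limma adjusted p = 1.85e-12) in AEG 3482. Akr1b8 fell in 4 compounds, and in 2 of these Akr1b10 rose, by 0.32 (limma adjusted p = 4.18e-05) in BerberineA and 0.23 (limma adjusted p = 0.00134) in Diphenyleneiodonium Cl. Of the 31-base words of Akr1b8, 9.48% are shared, chiefly with Akr1b10 and Akr1b7, and the part of shared reads in the opposite signs was not tested. Aldh3a2, the fatty aldehyde dehydrogenase gene 4996 bases from Aldh3a1, rose by 0.66 (limma adjusted p = 6.33e-10) in Cardamonin and 0.47 (limma adjusted p = 3.81e-07) in AEG 3482, beside 3.83 and 3.12 for Aldh3a1.

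Beside Nqo1, Nfat5, a transcription factor of the osmotic response, was lower in Cardamonin, at -0.44 (limma adjusted p = 0.000282), and did not pass in AEG 3482, at 0.04 (limma adjusted p = 0.745). Nfat5 was also lower in Antimycin A (-0.32) and Clofilium tosylate (-0.29). Dop1b, beyond Cbr3, did not pass in Cardamonin, at 0.07 (limma adjusted p = 0.464), and rose in AEG 3482, by 0.70 (limma adjusted p = 3.31e-08). Dop1b was also higher in Antimycin A (0.23) and Diphenyleneiodonium Cl (0.31). Tmem63a, 1098 bases from Ephx1, was lower in Cardamonin, at -0.39 (limma adjusted p = 0.000268), and higher in AEG 3482, at 0.60 (limma adjusted p = 9.75e-07), while Ephx1 rose in both. Dnajc25, next to Ptgr1, likewise had -0.23 (limma adjusted p = 0.00342) and 0.43 (limma adjusted p = 2.24e-06). Neither pattern was confined to these compounds. Tmem63a was also lower in Antimycin A (-0.36), BerberineA (-0.34) and Podofilox (-0.38). Dnajc25 was also lower in Antimycin A (-0.42), Dihydrorotenone (-0.23), Diphenyleneiodonium Cl (-0.42), BerberineA (-0.30) and Clofilium tosylate (-0.36), and higher in Podofilox (0.43). Smim14, next to the nearly level Ugdh, rose by 0.52 (limma adjusted p = 3.89e-10) in Cardamonin and 0.59 (limma adjusted p = 2.20e-10) in Podofilox, and also by 0.32 (limma adjusted p = 8.08e-06) in Antimycin A, 0.25 (limma adjusted p = 4.63e-05) in AEG 3482 and 0.19 (limma adjusted p = 0.00452) in Diphenyleneiodonium Cl.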
